A study of Mus musculus with 6 samples.

Results

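The enzymes and transporters of central carbon metabolism were followed gene by gene in a sorted myeloid progenitor fraction, as 41 genes listed by name: glucose and lactate transporters, the glycolytic enzymes with 2 control enzymes, the pentose phosphate pathway, the entry of pyruvate into mitochondria and the tricarboxylic acid (TCA) cycle. A gene was measured by a probe set with exactly 1 gene symbol, and where there were several, by the probe set of highest mean over all 6 arrays. Of the 41 genes, 38 had such a probe set, among 19938 genes in all, and all 38 were bright enough to be among the 13956 genes tested. Gpi1, Eno1 and G6pdx were not analysed here.

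RNA came from sorted bone marrow cells of C57BL6 male mice aged 4 weeks, 3 of them wild type and 3 with knockdown of MYB, a transcription factor of blood progenitors, and was measured on 1 Affymetrix array per mouse. The cells were sorted as positive for Kit and CD11b and low for lineage markers, a gate abbreviated K11bL; the title of the series calls them myeloproliferative. The labels used here do not say how MYB was lowered, in which cells, or which lineage markers were used. All values are the authors' log2 values per probe set, so a difference of 1 is a 2-fold difference, and every difference is knockdown minus wild type, ± its standard error (SE) from the fit, with n = 3 mice per group. A gene is said to have risen or fallen where its adjusted p was under 0.05 in a limma fit over all 13956 genes.

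Glycolysis splits glucose into pyruvate in the cytosol, and lactate dehydrogenase turns pyruvate into lactate. The pentose phosphate pathway branches off after the first phosphorylation of glucose; its oxidative arm yields NADPH, which neutrophils use for the oxidative burst, and its other arm yields ribose for nucleotides. Pyruvate that enters mitochondria is oxidised by the TCA cycle. Several steps have isoenzymes that differ between cell types: hexokinase 3 is known from myeloid cells, and granulocytes are known for a high glycolytic flux and few mitochondria.

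Array medians were 5.94, 5.99 and 5.96 in the wild type and 5.87, 5.90 and 5.89 in the knockdown mice, so every knockdown array was slightly lower. Myb was lower in each knockdown mouse (11.47, 11.46 and 11.46 against 11.26, 11.08 and 11.14; difference -0.30 ± 0.06, adjusted p = 0.0196). Knockdown mouse 3 stood apart: over all probe sets it correlated at 0.977 and 0.984 with the other knockdown mice, which correlated with each other at 0.994. Both genes of the sort were bright, with Kit between 10.38 and 10.58 in wild type and 10.21 and 10.24 in knockdown, and Itgam (CD11b) between 9.81 and 9.90 and between 9.07 and 9.85. Most granule and eosinophil markers fell, and most megakaryocyte and stem cell markers rose. Of 5 measured primary granule markers 5 fell, and their mean level was 12.03 to 12.20 in wild type and 10.45 to 10.53 in knockdown mice. Of 10 mature neutrophil markers 4 fell and 1 rose (mean level 9.78 to 10.23, then 9.23 to 9.84). Of 5 eosinophil markers 4 fell (8.73 to 9.08, then 5.69 to 6.70), of 6 megakaryocyte and platelet markers 5 rose (7.20 to 7.30, then 8.71 to 8.79), and of 5 stem cell markers 4 rose (6.79 to 6.97, then 7.61 to 7.78). Of 5 basophil and mast cell markers 2 rose and 3 fell (9.02 to 9.55, then 8.22 to 8.46), and of 6 B cell markers 3 fell (6.93 to 7.58, then 6.22 to 6.51). For 4 monocyte markers with 1 fall the levels were 9.72 to 9.99 and 8.70 to 9.43, and for 5 macrophage markers with 1 fall they were 7.35 to 7.58 and 6.10 to 6.85. For 5 erythroid markers, none of which passed, they were 7.58 to 8.08 and 7.36 to 8.58, and for 5 T and NK cell markers with 1 rise and 1 fall 6.40 to 6.64 and 6.48 to 6.57. The part of these shifts in the results on metabolic genes was not tested, and in sorted bulk RNA fewer cells of a type and less RNA per cell cannot be told apart.

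Of the 38 genes, 9 passed the test. Slc2a1, Pfkm, Fh1 and Mdh2 rose, and Hk3, Pfkfb3, Pfkfb4, Pgd and Rpe fell. The rises were 4 of 38 (10.5%), where 6.12% of all genes tested rose, and the falls were 5 of 38 (13.2%), where 5.48% of all genes fell. The median difference was 0.05, against 0.02 over all genes tested. The knockdown values lay wholly above the wild type values for 12 of the 38 (31.6%), against 19.9% of all genes, and wholly below them for 10 (26.3%), against 14.4%. All 9 genes that passed are among these 12 and 10. By the RefSeq annotation Slc2a1 and Pgd lie on chromosome 4, Rpe and Fh1 on 1, Pfkfb3 on 2, Mdh2 on 5, Pfkfb4 on 9, Hk3 on 13 and Pfkm on 15, and none lies with Myb on chromosome 10. By pathway, the control enzymes Pfkfb3 and Pfkfb4 fell, and 2 of 6 measured pentose phosphate genes fell and 0 rose. Of 10 genes listed under the TCA cycle 2 rose and 0 fell, and of 14 glycolytic enzymes 1 rose and 1 fell. The TCA list includes Idh1 and Mdh1, whose enzymes are cytosolic.

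These counts depended on the arrays. Without knockdown mouse 3, 12 of the 38 rose (31.6%, where 17.2% of all genes rose) and 7 fell (18.4%, where 10.0% of all genes fell), and all 9 genes kept their call. When wild type mouse 1, 2 or 3 or knockdown mouse 2 was left out, Slc2a1 was each time the 1 gene that rose, while of all genes 2.12%, 2.19%, 2.54% and 3.09% rose. The number that fell was then 2, 3, 2 and 4, with Hk3 and Pfkfb4 among them each time, while 2.63%, 2.72%, 2.81% and 3.44% of all genes fell. With every array centred on its median, the numbers were 8 rises and 4 falls, and over all genes 10.3% rose and 4.25% fell, so the calls over all genes shifted the same way.

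**Figure D1:**
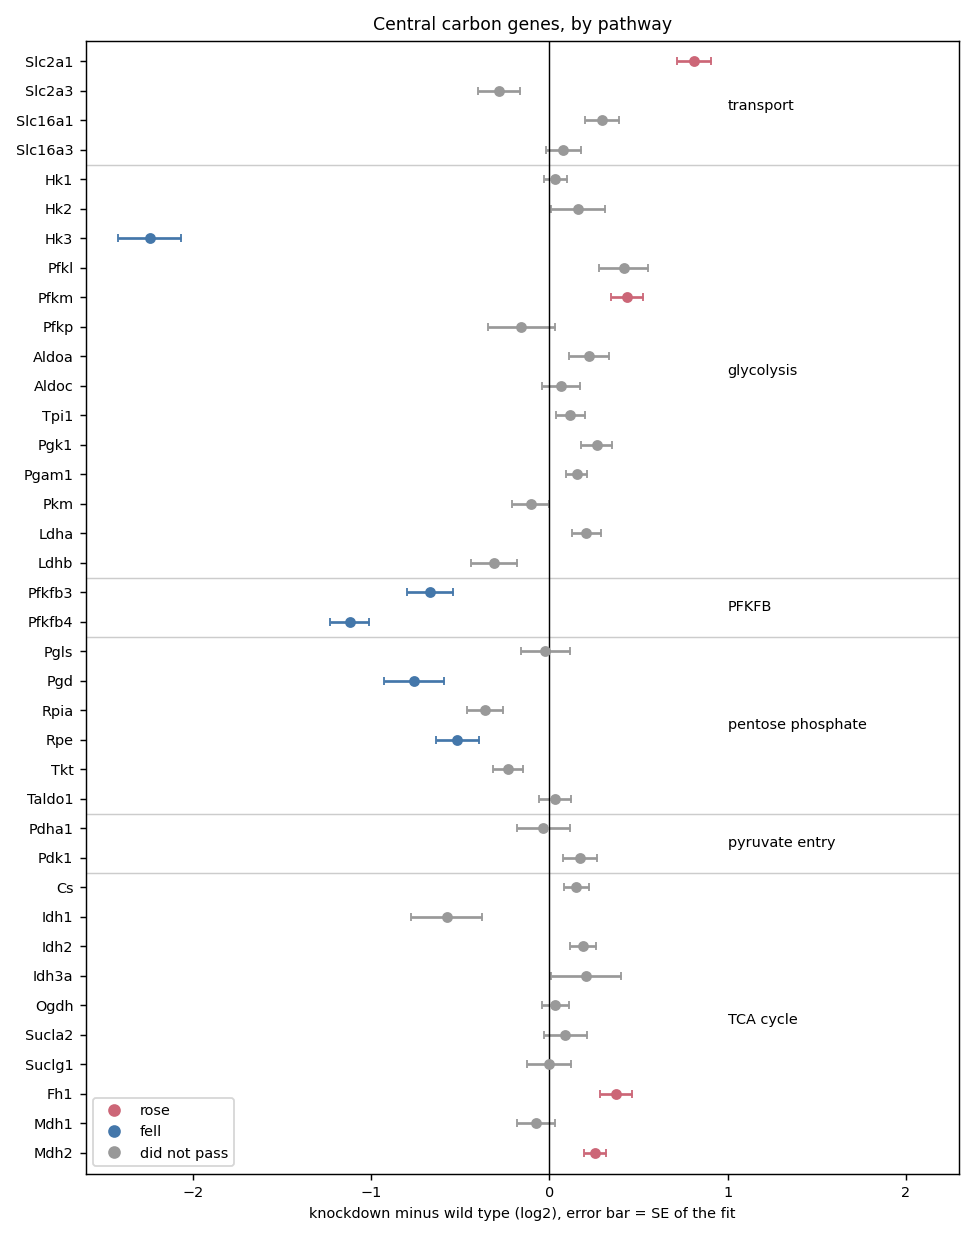
Difference between knockdown and wild type on the log2 scale for each of the 38 measured genes, in pathway order from the top, with the SE of the fit as error bar (n = 3 mice per group). Hk3 lies at -2.24, the control enzymes Pfkfb3 and Pfkfb4 at -0.67 and -1.12, and Slc2a1 at 0.81, while most other genes lie within 0.5 of 0.

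Glucose enters by facilitative transporters, and the main one of proliferating cells, Slc2a1 (GLUT1), rose. Its values were 8.47, 8.49 and 8.55 in the wild type mice and 9.21, 9.43 and 9.30 in the knockdown mice. Every knockdown value was above every wild type value, with a difference of 0.81 ± 0.10 (1.75-fold, adjusted p = 0.00135), and the call was kept with any 1 array left out (differences of 0.75 to 0.86). Slc2a3 (GLUT3), the high-affinity transporter, had 9.0, 9.32 and 9.11 and then 8.98, 8.86 and 8.73, which is lower in all knockdown mice but did not pass (-0.28 ± 0.12, adjusted p = 0.172). Slc16a1 (MCT1), a transporter of lactate and pyruvate, had 9.73, 9.51 and 9.72 and then 9.92, 10.04 and 9.88. It did not pass on all arrays (0.29 ± 0.10, adjusted p = 0.0902), but did without knockdown mouse 3 (0.33, adjusted p = 0.0154) and after median centring (0.37, adjusted p = 0.0474). With any other 1 array left out its adjusted p was 0.131 to 0.322. Slc16a3 (MCT4), which exports lactate from glycolytic cells, had 8.43, 8.41 and 8.30 and then 8.53, 8.48 and 8.37, with overlapping groups (0.08 ± 0.10).

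The base sequences upstream of the start of the largest rise and the 2 largest falls are shown because the knocked-down protein binds DNA. They are 250 bases long, end at the base before the annotated start, and come from RefSeq on GRCm38.p6: Hk3 on the minus strand at chr13:55021386-55021635, Pfkfb4 on the plus strand at chr9:108991652-108991901 and Slc2a1 on the plus strand at chr4:119108495-119108744. Capitals mark matches, on either strand, to the MYB core AACNG, the hypoxia response core ACGTG or the PU.1 core GAGGAA; in these 3 windows no match overlaps another.
Hk3: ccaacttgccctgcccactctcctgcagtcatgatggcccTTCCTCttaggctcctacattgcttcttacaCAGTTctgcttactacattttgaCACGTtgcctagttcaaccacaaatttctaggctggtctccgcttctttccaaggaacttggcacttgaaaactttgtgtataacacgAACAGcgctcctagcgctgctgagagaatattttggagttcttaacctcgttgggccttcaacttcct
Pfkfb4: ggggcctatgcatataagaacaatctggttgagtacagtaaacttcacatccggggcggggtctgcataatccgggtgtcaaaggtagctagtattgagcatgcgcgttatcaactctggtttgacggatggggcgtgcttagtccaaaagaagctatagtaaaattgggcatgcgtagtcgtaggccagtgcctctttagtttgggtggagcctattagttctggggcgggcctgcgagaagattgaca
Slc2a1: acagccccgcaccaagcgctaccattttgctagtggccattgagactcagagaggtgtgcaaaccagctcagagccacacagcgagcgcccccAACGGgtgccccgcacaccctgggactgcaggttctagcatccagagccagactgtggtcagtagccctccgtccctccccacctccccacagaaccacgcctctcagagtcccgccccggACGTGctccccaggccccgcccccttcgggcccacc
The Hk3 window holds the MYB core at 179 to 175 and at 68 to 64 bases upstream, the hypoxia core at 156 to 152 and the PU.1 core at 210 to 205. That of Slc2a1 holds the MYB core at 157 to 153 and the hypoxia core at 36 to 32 bases upstream, and the Pfkfb4 window holds none of the 3. Of all 32851 RefSeq windows of this length 74.2% hold the MYB core, 16.6% the hypoxia core and 23.3% the PU.1 core. Promoter entries matched 39 of the 41 genes. Counting a gene once if any of its windows had a match, the MYB core was in 4 of 4 genes that rose, 3 of 5 that fell and 22 of 27 that did not pass. The hypoxia core was in 2 of 4, 2 of 5 and 10 of 27, and the PU.1 core in 1 of 4, 3 of 5 and 6 of 27. Genes with several starts have several windows and so more chances of a match.

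Hexokinases phosphorylate glucose and commit it to the cell, and 1 of the 3 measured passed on all arrays. Hk3, the isoenzyme of myeloid cells, had 9.71, 9.76 and 9.70 in wild type and 7.91, 7.35 and 7.18 in knockdown mice. All 3 knockdown mice lay far below the wild type range, with mouse 1 the least low. Hk3 fell by 2.24 ± 0.18 (4.74-fold, adjusted p = 0.000188), more than any other of the 38 genes, and the call was kept with any 1 array left out (differences of -2.46 to -2.09). Hk2, the inducible isoenzyme, had 8.45, 8.50 and 8.31 and then 8.65, 8.84 and 8.26, so that 2 knockdown mice lay above the wild type range and mouse 3 below it. It did not pass on all arrays (0.16 ± 0.15, adjusted p = 0.585), and without knockdown mouse 3 it rose by 0.32 (adjusted p = 0.0225).

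The level of Hk1, the widespread isoenzyme, depends on the probe set. The brightest with Hk1 as its only symbol read 11.89, 11.81 and 11.93 and then 12.01, 11.80 and 11.93 (0.03 ± 0.07, adjusted p = 0.827). Its annotation rests on a single transcript record, without a RefSeq mRNA, and 16 other probe sets that carry the same record are annotated to Hk1 and to Rpl17, a ribosomal protein gene, together. The means of those 16 lay between 10.70 and 12.16. The dimmer Hk1 probe set, which is annotated with RefSeq mRNAs of Hk1, read 9.15, 9.34 and 9.20 and then 9.15, 9.11 and 8.98, a difference of -0.15 (adjusted p = 0.405 when it stands for the gene). It too shares a transcript record with 16 probe sets annotated to several genes, and all 16 name Rpl17. Neither probe set passed the test, and their signs were opposite. The shared records do not separate the probe sets, and which RNA each one measures was not tested.

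Phosphofructokinase, the main controlled step of glycolysis, has a muscle, a liver and a platelet type subunit. Pfkm (muscle type) had 7.38, 7.40 and 7.42 and then 7.82, 7.82 and 7.87, values that were tight in both groups and did not overlap. It rose by 0.43 ± 0.09 (1.35-fold, adjusted p = 0.0192), but with wild type mouse 1, 2 or 3 or knockdown mouse 2 left out it did not pass (adjusted p = 0.106, 0.10, 0.0993 and 0.0688), although its difference then stayed between 0.42 and 0.45. Pfkl (liver type) had 8.67, 8.73 and 8.78 and then 9.25, 9.35 and 8.85, with mouse 3 close to the wild type (0.42 ± 0.14, adjusted p = 0.0924). Without mouse 3 Pfkl rose by 0.57 (adjusted p = 0.000422), and after median centring by 0.49 (adjusted p = 0.0471). With any other 1 array left out its adjusted p was 0.181 to 0.2825. Pfkp (platelet type) had 9.19, 9.10 and 9.15 and then 9.20, 9.27 and 8.50, so that only mouse 3 was low (-0.16 ± 0.19, adjusted p = 0.686). Without that mouse its difference was 0.09 (adjusted p = 0.349). Beside the 5 of 6 megakaryocyte and platelet markers that rose, the platelet type subunit did not pass in either direction. A link between this gene and the markers was not tested.

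Pfkfb3 and Pfkfb4 encode bifunctional enzymes that make and break the fructose bisphosphate which activates phosphofructokinase, and both genes fell. Of the other members of this family, Pfkfb2 had 6.94, 6.95 and 6.93 and then 7.07, 6.89 and 6.58 with overlapping groups (-0.09 ± 0.13, adjusted p = 0.735), and Pfkfb1 was not analysed here. Pfkfb4 had 8.38, 8.26 and 8.32 in wild type and 7.36, 7.14 and 7.10 in knockdown mice, with no overlap. It fell by 1.12 ± 0.11 (2.18-fold, adjusted p = 0.000516) and kept its call with any 1 array left out (differences of -1.20 to -1.07). Pfkfb3, whose enzyme has the strongest kinase activity of the family, had 8.80, 8.54 and 8.59 and then 8.04, 8.11 and 7.77. It fell by 0.67 ± 0.13 (1.59-fold, adjusted p = 0.0124), and without wild type mouse 1 or 3 its adjusted p was 0.0744 and 0.0524.

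**Figure D2:**
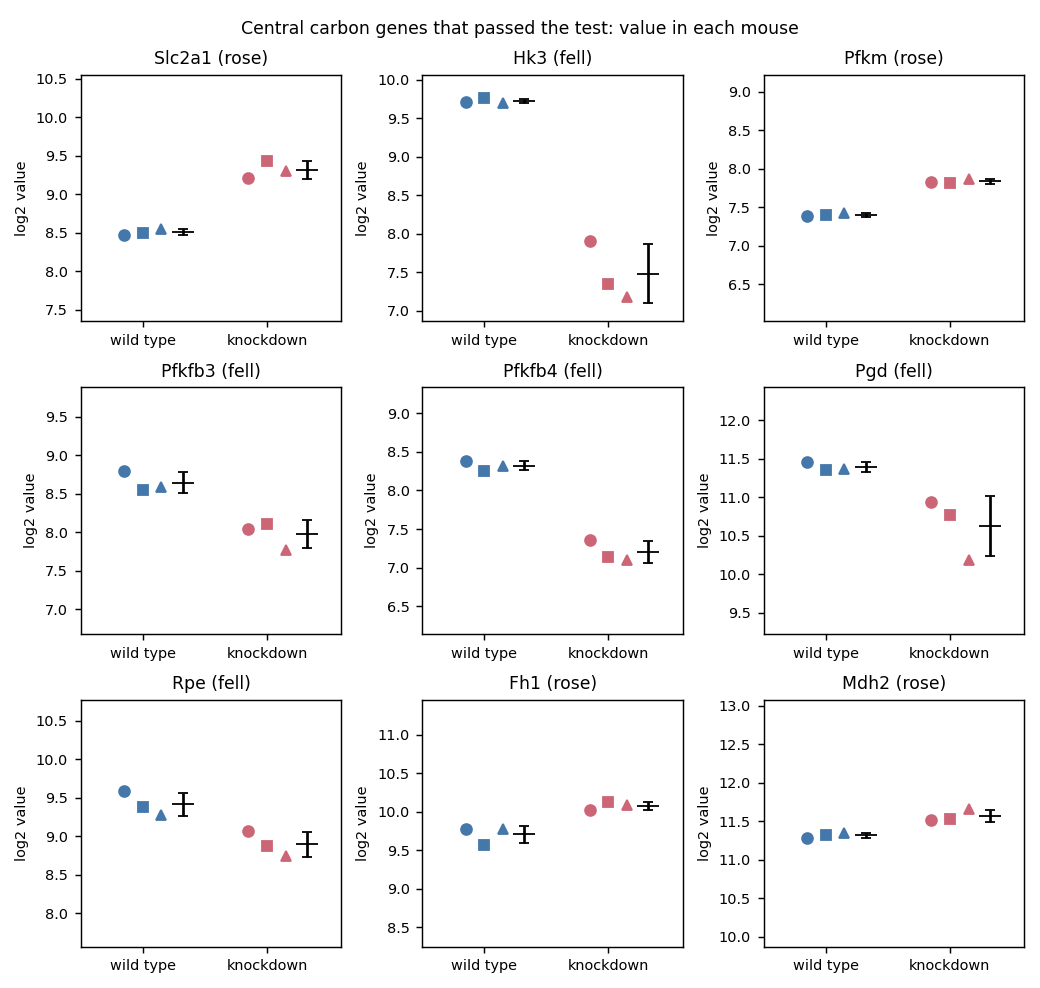
Log2 value in each mouse for the 9 genes that passed the test (circle, square and triangle are mice 1, 2 and 3 of a group; the bar is the mean with its SD, n = 3); all panels span the same range in log2 units. The groups are apart in every panel, widest for Hk3 and Pfkfb4, and knockdown mouse 3 is the lowest for Hk3, Pfkfb3, Pfkfb4, Pgd and Rpe.

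The lower glycolytic enzymes did not pass on all arrays. Pgk1, which makes the first ATP of the pathway, had 11.36, 11.30 and 11.38 and then 11.69, 11.73 and 11.42 (0.26 ± 0.09, adjusted p = 0.0907). Ldha, the lactate dehydrogenase subunit that favours lactate formation, had 11.70, 11.67 and 11.69 and then 12.01, 11.98 and 11.70 (0.21 ± 0.08, adjusted p = 0.154). In both genes knockdown mice 1 and 2 were about 0.3 above the wild type and mouse 3 was next to it. Without mouse 3, Pgk1 rose by 0.36 (adjusted p = 0.000842), Ldha by 0.30 (adjusted p = 0.00139) and Tpi1, triosephosphate isomerase, by 0.20 (adjusted p = 0.0176). Tpi1 differed on all arrays by 0.12 ± 0.08. Pgam1, phosphoglycerate mutase, had 11.29, 11.38 and 11.40 and then 11.45, 11.54 and 11.53, with all knockdown values above the wild type (0.15 ± 0.06, adjusted p = 0.153), and passed after median centring (0.23, adjusted p = 0.0431). Its 3 probe sets gave 0.15 each, and the 3 of Pgk1 gave 0.26, 0.26 and 0.27. Pairs of these sets read the same to 4 decimals, so they are not independent readings. Aldoa, an aldolase, had 11.17, 11.17 and 11.20 and then 11.28, 11.24 and 11.69, with all knockdown values above the wild type and mouse 3 the highest (0.22 ± 0.11, adjusted p = 0.271). Aldoc, another aldolase, had 6.34, 6.08 and 6.13 and then 6.27, 6.31 and 6.16, with overlapping groups (0.07 ± 0.11). Pkm, pyruvate kinase, differed by -0.11 ± 0.11, and by 0.004 without mouse 3. Ldhb, the other lactate dehydrogenase subunit, had 7.98, 7.90 and 8.11 and then 7.78, 7.82 and 7.45 (-0.31 ± 0.13, adjusted p = 0.170); its second probe set gave -0.13.

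In the pentose phosphate pathway 5 of 6 measured genes were lower in the knockdown on average, where 6474 of all 13956 genes tested were lower. The 5 include Pgls, at -0.02. All knockdown values were below all wild type values for 4 of the 6, against 14.4% of all genes. Pgd, the second dehydrogenase of the oxidative arm and a source of NADPH, had 11.46, 11.35 and 11.36 and then 10.93, 10.77 and 10.19. It fell by 0.76 ± 0.17 (1.69-fold, adjusted p = 0.0233), and mouse 3 was the lowest. The call was lost without wild type mouse 1, 2 or 3 (adjusted p = 0.107, 0.0869 and 0.0736), and without knockdown mouse 3 the fall was 0.54 (adjusted p = 0.00041). Rpe, the epimerase of ribulose phosphate, had 9.58, 9.38 and 9.28 and then 9.06, 8.87 and 8.75. It fell by 0.52 ± 0.12 (1.43-fold, adjusted p = 0.0291), and its adjusted p was 0.141, 0.108 and 0.0642 with wild type mouse 1, 2 or 3 left out and 0.0937 with knockdown mouse 2 left out; after median centring it was 0.0528. Rpia, the isomerase that makes ribose phosphate, had 9.48, 9.41 and 9.47 and then 9.16, 9.19 and 8.91. It missed the threshold (-0.36 ± 0.10, adjusted p = 0.0587) but fell without knockdown mouse 3 (by 0.27, adjusted p = 0.00912) and after quantile normalization (by 0.38, adjusted p = 0.0224). Tkt, transketolase, had 10.36, 10.44 and 10.46 and then 10.28, 10.07 and 10.21 (-0.23 ± 0.08, adjusted p = 0.116), and fell by 0.25 without mouse 3 (adjusted p = 0.0327). Pgls, the lactonase between the dehydrogenases, differed by -0.02 ± 0.14, and Taldo1, transaldolase, by 0.03 ± 0.09. Beside these genes, as given above, all 5 measured primary granule markers fell, while of 10 mature neutrophil markers 4 fell and 1 rose. Whether the pentose phosphate genes and these markers are linked was not tested.

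At the entry to the TCA cycle no gene passed. Pdha1, a subunit of pyruvate dehydrogenase, had 9.93, 9.85 and 9.78 and then 10.01, 9.99 and 9.45 (-0.04 ± 0.15), again with only mouse 3 low. Pdk1, the kinase that inhibits that enzyme, had 8.61, 8.55 and 8.65 and then 8.68, 8.81 and 8.83 (0.17 ± 0.10, adjusted p = 0.317).

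In the cycle itself the genes that passed lie next to each other: fumarase and malate dehydrogenase catalyse its last steps. Fh1, fumarase, had 9.77, 9.57 and 9.77 and then 10.02, 10.12 and 10.08, and rose by 0.37 ± 0.09 (1.29-fold, adjusted p = 0.032). Mdh2, the mitochondrial malate dehydrogenase, had 11.28, 11.32 and 11.34 and then 11.52, 11.53 and 11.66, and rose by 0.25 ± 0.06 (1.19-fold, adjusted p = 0.0341). Both rises lost their call with any wild type mouse or knockdown mouse 2 left out, with, in that order, adjusted p of 0.0963, 0.143, 0.096 and 0.115 for Fh1 and 0.150, 0.120, 0.111 and 0.0777 for Mdh2. Mdh2 also did not pass without the trend in the variance (adjusted p = 0.109). Mdh1, the cytosolic malate dehydrogenase, differed by -0.07 ± 0.11.

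Idh1, the cytosolic isocitrate dehydrogenase and another source of NADPH, had 10.24, 9.83 and 10.05 and then 9.80, 9.58 and 9.01. Its knockdown values were all below the wild type values but spread widely, and it did not pass (-0.58 ± 0.20, adjusted p = 0.106). Without knockdown mouse 1 it fell by 0.75 (adjusted p = 0.0422), while with any other 1 array left out its adjusted p was 0.0503 to 0.3385. Its mitochondrial counterpart Idh2 had 10.26, 10.32 and 10.30 and then 10.41, 10.47 and 10.56 (0.19 ± 0.07, adjusted p = 0.155). Idh3a, a subunit of the enzyme that runs the cycle forward, had 10.10, 9.82 and 10.03 and then 10.38, 10.49 and 9.69, high in mice 1 and 2 and low in mouse 3 (0.20 ± 0.20). Cs, citrate synthase, had 10.75, 10.74 and 10.78 and then 10.97, 10.94 and 10.81, also with the groups apart (0.15 ± 0.07, adjusted p = 0.222). Without mouse 3, Idh3a rose by 0.45 (adjusted p = 0.00449) and Cs by 0.20 (adjusted p = 0.0167). Ogdh, Sucla2 and Suclg1, of the middle steps of the cycle, differed by 0.03, 0.09 and -0.004.

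Isoenzymes of a step were compared within arrays. For 12 pairs the value of one gene minus that of the other was taken within each array and compared between the groups with a two-sided exact permutation test, whose smallest possible p with 3 mice against 3 is 0.1, or 0.15 after adjustment over the pairs. No pair could therefore pass the threshold of 0.05, and 8 of the 12 reached that smallest value because their groups did not overlap. No share over all pairs of genes was computed to set beside this count. Of single genes, 19.9% had knockdown values wholly above and 14.4% wholly below the wild type values. Some of the pairs share a gene, such as Hk3 or Pfkp, so they are not separate results. Relative to the wild type mean, Hk1 minus Hk3 was 1.94, 2.29 and 2.60 in the knockdown mice and -0.10 to 0.07 in the wild type, and with the Hk1 probe set that has RefSeq mRNAs its mean was 2.09 in place of 2.28. Hk2 minus Hk3 shifted by 2.41 ± 0.38 (SD of the knockdown mice). Slc2a1 minus Slc2a3 was 0.87, 1.21 and 1.21, against -0.19 to 0.11 in wild type. Ldha minus Ldhb was 0.54, 0.46 and 0.56, against -0.11 to 0.08. This last ratio was alike in all 3 knockdown mice, although each gene alone had an outlying mouse 3; it was 0.43 with the mean of each gene's probe sets. Idh1 minus Idh2 shifted by -0.76 ± 0.49, Pfkl minus Pfkp by 0.58 ± 0.16, Pfkm minus Pfkp by 0.59 ± 0.45 and Pfkfb3 minus Pfkfb4 by 0.45 ± 0.17. Without knockdown mouse 3, Idh1 minus Idh2 shifted by -0.49 and Pfkm minus Pfkp by 0.33. For Hk1 and Hk2, Pfkl and Pfkm, Aldoa and Aldoc, and Slc16a1 and Slc16a3 the groups overlapped, with shifts of -0.13, -0.02, 0.16 and 0.22. These small shifts had no stable size or, for 3 of the 4 pairs, sign. Hk1 minus Hk2 was -0.31 with the Hk1 probe set that has RefSeq mRNAs, and with wild type mouse 2 or 3 left out it was -0.20 and -0.05. With knockdown mouse 2 or 3 left out it was 0.06 and -0.30. Pfkl minus Pfkm ranged from -0.13 without knockdown mouse 2 to 0.15 without knockdown mouse 3. Aldoa minus Aldoc ranged from -0.03 without knockdown mouse 3 to 0.27 without knockdown mouse 2, and Slc16a1 minus Slc16a3 from 0.13 to 0.29 without wild type mouse 2 or 3.

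**Figure D3:**
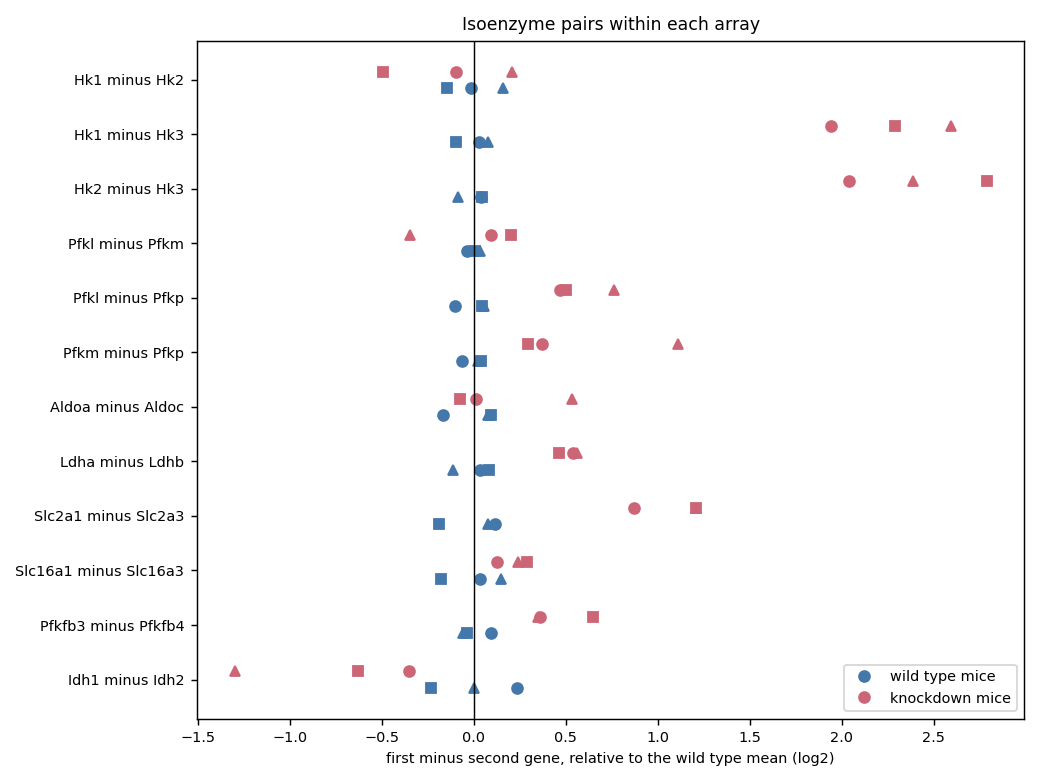
Log2 value of one isoenzyme gene minus the other within each array, relative to the mean of the wild type mice, for 12 pairs (circle, square and triangle are mice 1, 2 and 3 of a group). The knockdown mice lie apart from the wild type mice in 8 pairs, some of which share a gene. The gap is widest for Hk1 and Hk2 against Hk3, and the 3 knockdown mice lie closest together for Ldha minus Ldhb.

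The knockdown mice differed among themselves. Mouse 3 had the lowest of the 3 knockdown values for 25 of the 38 genes (65.8%), against 42.9% of all genes tested, and for 10 of the 14 glycolytic enzymes. The median glycolytic gene lay 0.12, 0.16 and -0.005 from the wild type mean in mice 1, 2 and 3, and the median TCA gene 0.18, 0.17 and -0.05. In all genes tested these medians were 0.01, 0.03 and 0.05. The median pentose phosphate gene lay -0.26, -0.31 and -0.37 from the wild type mean, although Pgls in mouse 3, at 8.43, was above its wild type values of 8.10, 8.23 and 8.21. For the control enzymes Pfkfb3 and Pfkfb4 the medians were -0.78, -0.86 and -1.05. Without mouse 3 the genes that rose were Slc16a1, Hk2, Pfkl, Tpi1, Pgk1, Ldha, Cs and Idh3a beside the 4 of all arrays. Those that fell were Rpia and Tkt beside the 5. None of the genes added in this way was called with any other single array left out. Among the knockdown mice, mouse 3 had the highest mean level of erythroid markers (8.58, against 8.03 and 7.36 in mice 1 and 2). Its monocyte marker level was the lowest (8.70, against 9.43 and 9.34). The primary granule marker levels were 10.52, 10.53 and 10.45 in mice 1, 2 and 3. No scan date or RNA quality record was used here that could set mouse 3 apart, and why it stood apart was not tested.

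**Figure D4:**
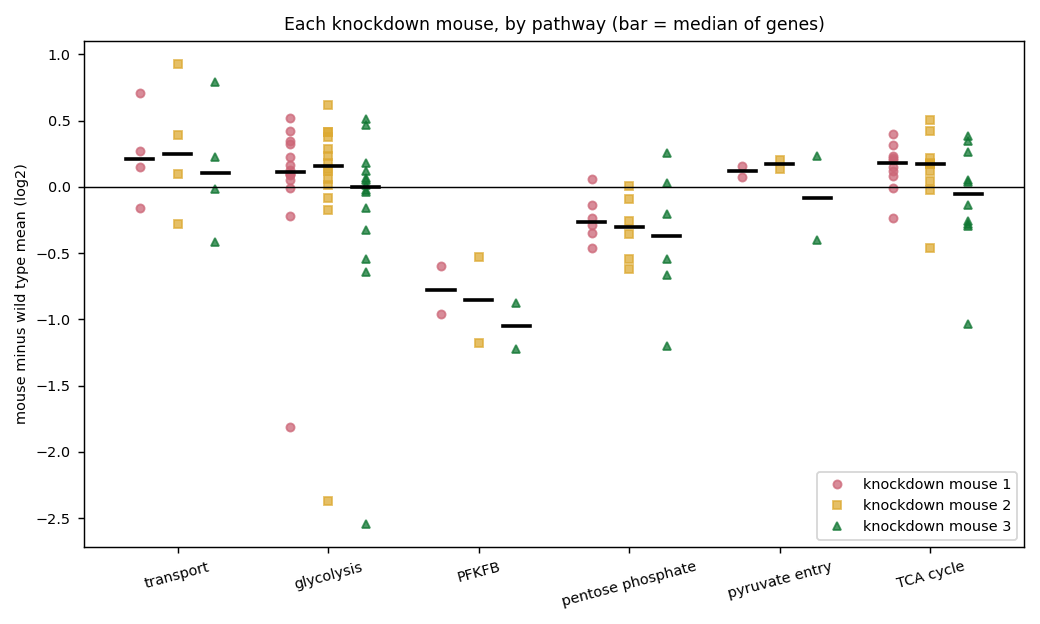
Each measured gene in each knockdown mouse, as its log2 value minus the mean of the 3 wild type mice, by pathway; the black bar is the median over the genes of a pathway. The glycolytic and TCA medians of knockdown mouse 3 (-0.005 and -0.05) lie below those of mice 1 and 2, while the pentose phosphate medians are below 0 in all 3 mice. The TCA genes here include the cytosolic Idh1 and Mdh1.

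Genes of neighbouring steps, of glycogen and of the response to low oxygen, written as a list from textbook knowledge, gave 65 more that could be tested. Of the 65, 2 rose (3.08%, against 6.12% of all genes tested) and 7 fell (10.8%, against 5.48%). The 65 include 12 genes of the response to low oxygen, and 2 of the 7 falls are theirs. Those 12 are described under other observations. Fbp1, fructose bisphosphatase, which reverses the phosphofructokinase step, had 8.85, 8.43 and 8.20 and then 5.80, 6.05 and 5.75. It fell by 2.62 ± 0.17 (6.16-fold, adjusted p = 7.81e-05). Adpgk, an ADP-dependent glucokinase, fell by 0.93 ± 0.17 (adjusted p = 0.00967; 0.0578 without wild type mouse 2), beside Hk3. Slc2a6, a glucose transporter family member, had 7.01, 7.18 and 6.99 and then 7.65, 8.15 and 8.24, and rose by 0.95 ± 0.16 (adjusted p = 0.00765), beside Slc2a1. The other 11 genes listed under the TCA cycle include Acly, Aco1 and Me2, which are not of the cycle itself. Of these 11, only Sdhb, a subunit of succinate dehydrogenase, rose (0.39 ± 0.10, adjusted p = 0.0496). Its call was kept without knockdown mouse 3 but lost without any other single array, with adjusted p of 0.204, 0.112 and 0.170 without wild type mice 1, 2 and 3 and 0.0765 and 0.160 without knockdown mice 1 and 2. Of 9 further genes of pyruvate entry and 5 of the pentose phosphate pathway, limma called 0. In that order, knockdown values lay wholly above the wild type values for 3 and 1 of them, and wholly below for 0 and 1. Of all genes tested, 19.9% lay wholly above and 14.4% wholly below.

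Glycogen, which granulocytes store, had 8 tested genes, of which 3 fell (37.5%, against 5.48% of all genes); 1 of the 3, Pygl, lost its call in several fits with an array left out. Gbe1, the branching enzyme, had 9.85, 9.59 and 9.58 and then 8.74, 8.58 and 8.39, and fell by 1.10 ± 0.12 (2.15-fold, adjusted p = 0.000993). Gys1, glycogen synthase, had 9.64, 9.55 and 9.45 and then 8.77, 8.63 and 8.94, and fell by 0.77 ± 0.11 (adjusted p = 0.00323). Pygl, the liver type phosphorylase, fell by 0.47 ± 0.11 (adjusted p = 0.026), but had an adjusted p of 0.105, 0.108 and 0.119 with wild type mouse 1, 2 or 3 left out and of 0.0912 with knockdown mouse 2 left out. Pygb, the brain type phosphorylase, differed the other way (0.36 ± 0.11, adjusted p = 0.0844), as did Gyg (0.26 ± 0.08, adjusted p = 0.0673). Both had all knockdown values above all wild type values, which is 2 of the 8, against 19.9% of all genes. For 4 of the 8 all knockdown values were below, against 14.4% of all genes. These were the 3 that fell and Pgm1, which did not pass (-0.28 ± 0.11, adjusted p = 0.1635). The counts over these 65 genes were 5 in all without wild type mouse 2 and 23 without knockdown mouse 3. Of all genes tested, 2.19% rose and 2.72% fell without wild type mouse 2, and 17.2% and 10.0% without knockdown mouse 3.

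**Figure D5:**
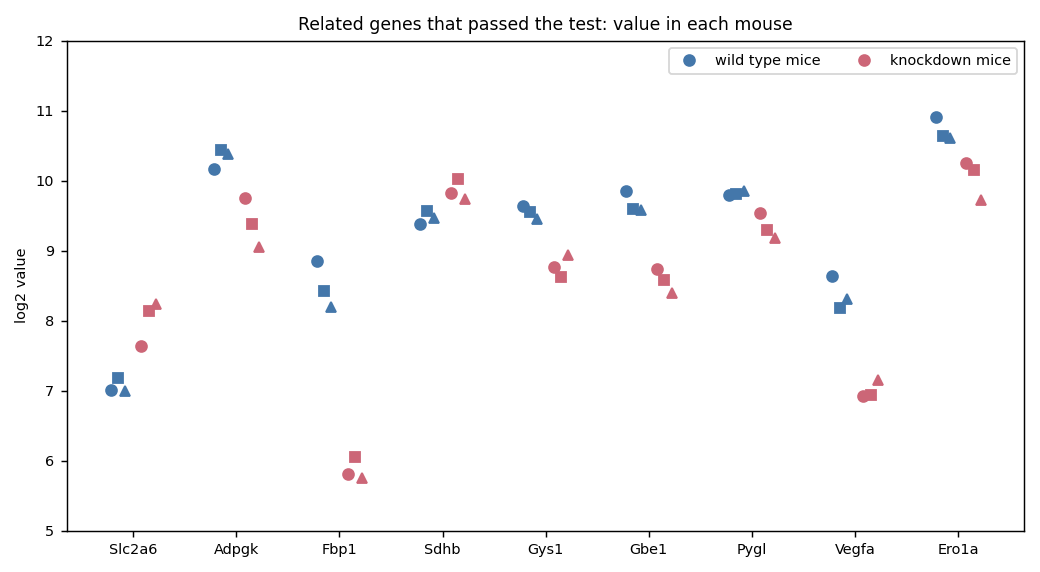
Log2 value in each mouse for the 9 related genes that passed the test (circle, square and triangle are mice 1, 2 and 3 of a group). The groups are apart for every gene; Fbp1 has the widest gap, at 8.20 to 8.85 in wild type and 5.75 to 6.05 in knockdown mice, and Slc2a6 and Sdhb are the 2 that rose.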

How the data were processed

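The data were 6 Affymetrix arrays, 1 per mouse, of sorted bone marrow cells. The deposited table holds log2 values per probe set made by the authors; Affymetrix Expression Console and limma are named in the submitters' processing notes, while their versions and roles, and how probes were normalized and summarised, were not stated there. Of 35556 probe sets, 21789 had 1 gene symbol, 1621 several, and 12146 were not in the annotation used here; 21698 of those with 1 symbol matched RefSeq (GRCm38.p6) by gene number. Genes in the lowest 30% of mean over all arrays were left out. Groups were compared with limma 3.58.1 (R 4.3.3), lmFit and eBayes with a trend and no covariates, with Benjamini-Hochberg adjustment over 13956 genes. The script was tested on simulated data. Arrays have no read depth; their number limits the precision.

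The genes, pathways, marker and related lists were chosen with earlier results of these data known. By rule, every gene with a value was accounted for, genes that passed, genes of isoenzyme pairs and genes with groups apart were given by mouse, and related genes were named where they passed. Pfkfb2, Pygb, Gyg, Pgm1, Hif1a, Ddit4, Egln3, Bnip3, Ndrg1 and Vhl, which did not pass, were chosen after their values were seen. Marker levels are means of log2 values. Alternatives tried were a block for the replicate number, leaving out each array, quantile normalization, median centring, no filter or one at 50%, the mean of probe sets, no trend, array weights, a threshold of 0.1 and at least 1.5-fold. The choice of probe sets with a RefSeq mRNA was added after seeing the data. Same-numbered mice are different animals, and their deviations from the group means correlated at 0.29, -0.19 and -0.08.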

Additional observations from a re-analysis of the deposited data

How the results depend on the processing

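No gene that passed on all arrays changed sign under any alternative. With the replicate number as a replicate block, 2 genes rose and 6 fell, since Pfkm and Fh1 had an adjusted p of 0.0573 and 0.065 and Idh1 one of 0.0446; the numbers do not pair the mice. With each array left out, the number that rose ranged from 1 to 12, the number that fell from 2 to 7, and that of related genes called from 5 to 23. Median centring gave 8 rises and 17 related genes called, and array weights 14 rises, 10 falls and 30 related genes. A threshold of 0.1 gave 7 rises and 18 related genes, and at least a 1.5-fold change left 1 rise. Over all 13956 genes, array weights gave 3019 rises and 1937 falls, and the threshold of 0.1 gave 1374 and 1040. The replicate block gave 746 rises and 726 falls over all genes, and at least a 1.5-fold change left 407 rises. Leaving out an array also lowers the number of mice in the fit. The other alternatives kept the counts within 1.5 times.

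Signs changed for 9 genes, none of which passed in either direction and none with a difference over 0.16 on all arrays. Hk1 was -0.00499 after quantile normalization, -0.0582 with the mean of probe sets, -0.0618 with array weights and -0.15 with RefSeq probe sets. Ogdh was -0.00418 after quantile normalization. After median centring Pgls, Pdha1, Suclg1 and Mdh1 were 0.0502, 0.0394, 0.0714 and 0.00122. With array weights Pfkp, Pkm, Pdha1, Suclg1 and Mdh1 were 0.0824, 0.0174, 0.15, 0.11 and 0.0329. With each array left out, Hk1 ranged from -0.015 to 0.0907, Pfkp from -0.296 to 0.0854, Pkm from -0.167 to 0.00402, Pgls from -0.164 to 0.0805, Taldo1 from -0.0136 to 0.0667, Pdha1 from -0.132 to 0.146, Suclg1 from -0.0808 to 0.134 and Mdh1 from -0.132 to 0.0176. The cause was not tested. Arrays have no depth, so the number of mice limits what could be called.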

Other observations

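The response to low oxygen is driven by a factor that also controls glycolytic genes. Of 12 tested genes of this response, 2 fell (16.7%, against 5.48% of all genes tested) and 0 rose, where 6.12% of all genes rose. Knockdown values lay wholly above the wild type values for 4 of the 12, against 19.9% of all genes. They lay wholly below them for 4, against 14.4% of all genes. Vegfa, the vascular growth factor, had 8.64, 8.19 and 8.30 in wild type and 6.92, 6.94 and 7.15 in knockdown mice, and fell by 1.38 ± 0.14 (2.60-fold, adjusted p = 0.000662). Ero1a, an oxidase of protein folding, fell by 0.68 ± 0.15 (adjusted p = 0.0212), with an adjusted p of 0.106, 0.0736 and 0.0551 without wild type mouse 1, 2 or 3. Hif1a, which encodes the oxygen-regulated subunit, differed by -0.33 ± 0.15 (adjusted p = 0.215). Ddit4 differed by 0.42 ± 0.11 (adjusted p = 0.0506). Egln3, a prolyl hydroxylase, and Bnip3, a mitophagy receptor, differed by 0.35 ± 0.10 (adjusted p = 0.0634) and 0.32 ± 0.10 (adjusted p = 0.080). Ddit4, Egln3, Bnip3 and Ndrg1 each had all knockdown values above all wild type values. Hif1a, Vhl, Vegfa and Ero1a each had all of them below, and neither Ndrg1 nor Vhl passed the test. Slc2a1 rose beside the fall of Vegfa, and both are known targets of that factor. Whether the factor had a part in either change was not tested.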
